A study of Homo sapiens with 6 samples.

Results

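The genes of 10 receptor chains for cytokines that act on B cells were followed by RNA sequencing in OCI-LY1, a widely used human line grown from a diffuse large B cell lymphoma, a cancer of mature B cells. The 10 genes were taken by symbol from the table of 23250 genes, and all 10 were found. They are the common gamma chain IL2RG, its partner chains IL7R, IL4R, IL21R, IL2RA and IL2RB, the IL-10 receptor chains IL10RA and IL10RB, and the IL-6 receptor chains IL6R and IL6ST. In every library the cells had been given siRNA against their own BCL6, a transcriptional repressor that B cells need to form germinal centres, and then expressed an introduced copy. The mutant rescue (3 libraries) expressed BCL6 mutated in RD2, the central of its repression domains, and the WT rescue (3 libraries) expressed wild-type BCL6. All libraries came from 1 cell line, no library lacked a rescue, and the exact RD2 mutation is not given in the sources used here.

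Cytokine receptors of these families have no kinase activity of their own. A cytokine brings together chains that carry JAK kinases, and the activated kinases phosphorylate STAT transcription factors, which move to the nucleus. IL2RG carries JAK3 and is shared by the receptors for IL-2, IL-4, IL-7, IL-9, IL-15 and IL-21, so the partner chain sets which cytokine is bound. IL-4 and IL-21 come from follicular helper T cells and act on germinal centre B cells, IL-7 acts on early B cell precursors and T cells, and IL-10 and IL-6 act on differentiating B cells. IL6ST (gp130) is the signalling chain shared by IL-6 and related cytokines, and IL10RB is shared by the receptors for IL-10, IL-22, IL-26 and the type III interferons.

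The upstream regions of IL7R, IL2RG and IL4R are shown because IL7R and IL2RG together form the IL-7 receptor and had more transcript in the mutant rescue, and IL4R, another partner of IL2RG, had less. Each is the 250 bases before the RefSeq start site on build GRCh38.p14, read 5′ to 3′ on the gene's own strand, and capitals mark the motif CCGGAAG, a core bound by many ETS factors. The IL7R window is chr5:35856641-35856890 (plus strand), the IL2RG window chrX:71111578-71111827 (minus strand) and the IL4R window chr16:27313724-27313973 (plus strand).
IL7R: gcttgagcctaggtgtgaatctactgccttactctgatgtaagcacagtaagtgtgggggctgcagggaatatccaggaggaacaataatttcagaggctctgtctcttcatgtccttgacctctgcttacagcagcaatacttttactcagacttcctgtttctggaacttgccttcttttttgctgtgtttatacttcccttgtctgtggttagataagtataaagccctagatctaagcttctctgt
IL2RG: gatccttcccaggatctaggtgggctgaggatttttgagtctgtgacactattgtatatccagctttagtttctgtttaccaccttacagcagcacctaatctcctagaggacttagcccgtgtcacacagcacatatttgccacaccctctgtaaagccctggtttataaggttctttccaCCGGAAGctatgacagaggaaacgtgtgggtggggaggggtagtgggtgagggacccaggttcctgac
IL4R: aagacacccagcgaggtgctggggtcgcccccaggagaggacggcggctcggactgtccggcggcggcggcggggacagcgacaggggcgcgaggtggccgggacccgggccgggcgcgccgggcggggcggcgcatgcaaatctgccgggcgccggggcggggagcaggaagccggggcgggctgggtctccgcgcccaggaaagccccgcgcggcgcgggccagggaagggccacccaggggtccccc
The IL4R window was 80.8% G and C, against 43.6% for the IL7R window. CCGGAAG, searched on both strands, lay in the IL2RG window, 68 bases before the start site, and in no other window of the 9 members with a promoter entry, and 8.52% of all 35116 promoter windows of this length held it. The core shared by STAT factors and BCL6, TTCNNNGAA, was in none of the 9 member windows and in 6.57% of all windows, and the wider spacing preferred by STAT6, TTCNNNNGAA, was in none and in 5.38%. A match describes the letters alone, and no match says only that these letters are not in these windows.

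The libraries held 26298456 to 26966183 counts in the mutant rescue and 26477404 to 27574867 counts in the WT rescue. The second mutant rescue library stood apart from its replicates, with a chi-square per degree of freedom of 5.47 and 4.36 against them, where the other mutant rescue pair gave 1.75 and the WT rescue pairs 1.60 to 3.01. Without it the log2 fold changes were 1.28 for IL7R, 0.89 for IL2RG, 0.92 for IL10RB, 0.25 for IL2RA, -1.24 for IL10RA, -0.88 for IL4R, -0.34 for IL6ST and -0.04 for IL21R, and 4 members rose and 3 fell, as with it. At these depths a floor of 3 counts per library came to 0.109 to 0.115 CPM, the unit used for counts after scaling by library size, and covers counting error only. BCL6 itself had 14166, 13726 and 13827 counts in the mutant rescue and 19069, 16998 and 18789 counts in the WT rescue, a log2 fold change of -0.38 (SE 0.032; edgeR quasi-likelihood test, adjusted p = 7.90e-10), and the table holds 1 value for the cells' own and the introduced transcript together. The B cell identity of the line was visible in all libraries, with 8 B cell markers summing to 3297 to 3398 CPM in the mutant rescue and 3716 to 3758 CPM in the WT rescue. The 8 T cell markers summed to 79.8 to 85.3 CPM in the mutant rescue and 98.0 to 101.9 CPM in the WT rescue, nearly all of it LCK, which fell (log2 fold change -0.34). CD28, the other T cell marker tested, rose against the sum, with 94, 102 and 82 counts in the mutant rescue and 29, 38 and 30 counts in the WT rescue (log2 fold change 1.52; edgeR, adjusted p = 9.00e-08). CD8A had 3, 6 and 5 counts in the mutant rescue and 1, 2 and 0 counts in the WT rescue, CD3D and CD3G had at most 1 count in any library, and CD2, CD3E and TRAT1 were at 0. The 6 NK cell markers summed to 3.05 to 4.14 CPM in the mutant rescue and 1.45 to 2.09 CPM in the WT rescue. Most of this was PRF1, which rose (log2 fold change 1.59). KLRD1 went against the sum, with 2, 0 and 2 counts in the mutant rescue and 13, 10 and 9 counts in the WT rescue, and was not tested. GNLY, NCAM1, NCR1 and NKG7 had at most 5 counts in any library. The 8 myeloid markers summed to 0.522 to 0.821 CPM in the mutant rescue and 0.110 to 0.306 CPM in the WT rescue, with MPO, S100A8 and S100A9 at 0. These marker sums and BCL6 differed between the rescues, and their part in the results was not tested. In bulk RNA, fewer cells of a type and less RNA per cell cannot be told apart, and effects of the mutation and differences between cultures cannot be told apart. No label states separate cultures, so p-values measure only how these libraries spread, which may be technical.

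IL7R, IL2RG, IL10RB and IL2RA rose in the mutant rescue, whereas IL10RA, IL4R and IL6ST fell and IL21R did not pass the test. The rises were 2.54-fold for IL7R, 1.90-fold for IL2RG, 1.89-fold for IL10RB and 1.2-fold for IL2RA. The falls were 2.35-fold for IL10RA, 1.85-fold for IL4R and 1.22-fold for IL6ST. IL6R and IL2RB were near the detection limit in both rescues and were not tested. Of the 8 members that passed the filter on low counts, 7 changed (quasi-likelihood test in edgeR, p under 0.05 after Benjamini-Hochberg adjustment), against 70.1% of all 12406 tested genes. Of the 8, 4 rose (35.4% of all tested genes) and 3 fell (34.8%), and with 70.1% of the table changed, no more is read from a count over 8 genes. A change of at least 2-fold was seen for 2 of the 8, IL7R and IL10RA (9.51% of all tested genes), and 5 of the 8 changed by more than 1.2-fold (edgeR glmTreat; 37% of all tested genes). For 7 of the 8 the rescues did not overlap (72.4% of all tested genes). The median log2 fold change of the 8 members was 0.10, against 0.01 over all tested genes, and the median of its absolute size was 0.90 against 0.29.

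**Figure D1:**
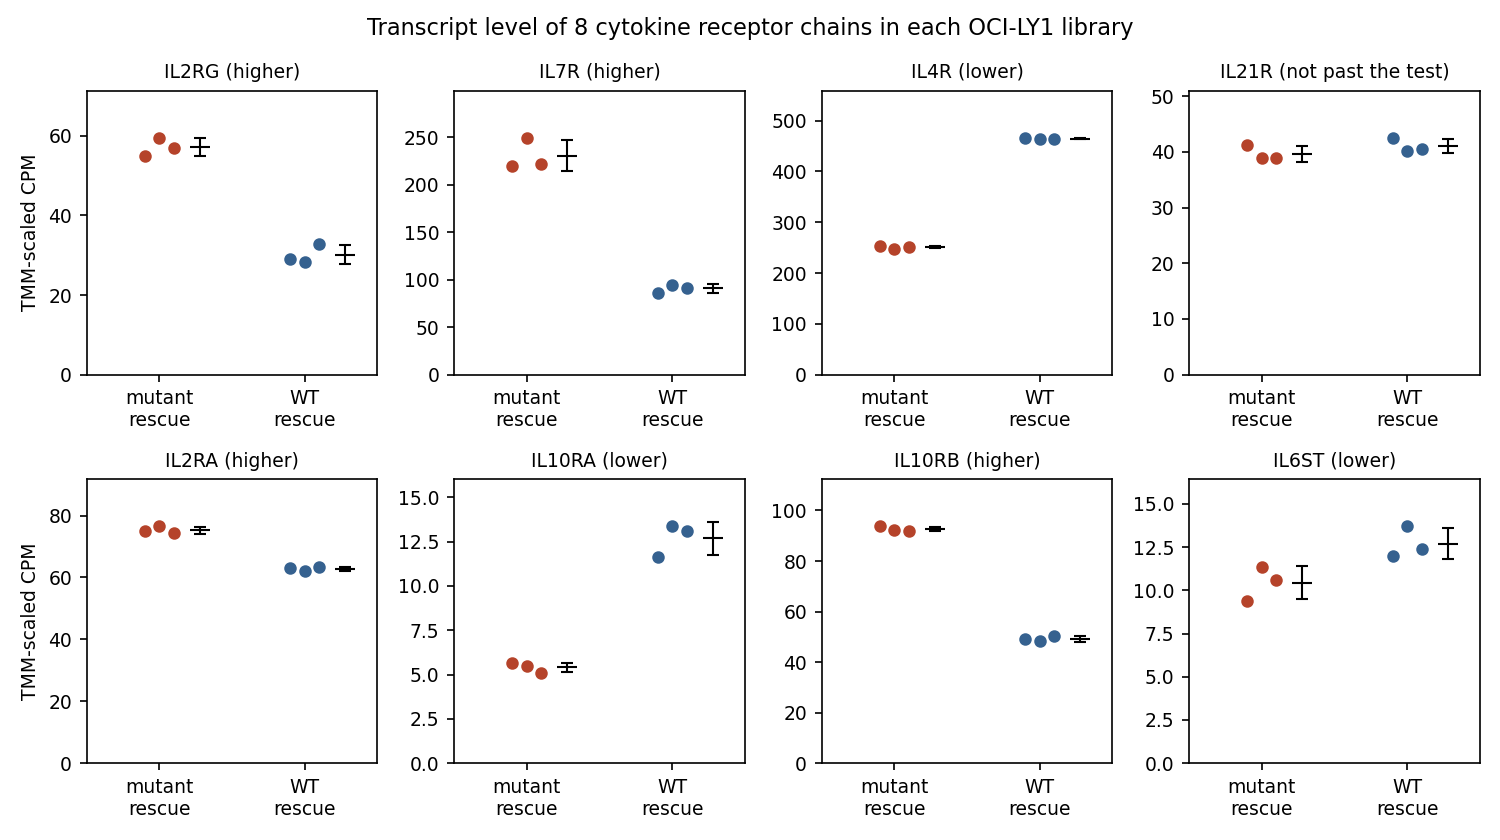
TMM-scaled CPM of the 8 tested receptor chains, with the mutant rescue on the left and the WT rescue on the right of each panel; each point is 1 library and the bars give mean and SD (n = 3). The groups do not overlap for any chain but IL21R, and IL7R and IL4R lie near each other in the mutant rescue (219.7 to 249 and 248 to 253 CPM) but far apart in the WT rescue.

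The common gamma chain IL2RG had 55.0, 59.5 and 56.9 CPM in the mutant rescue, against 29.0, 28.4 and 32.8 CPM in the WT rescue. All 3 mutant rescue libraries lay above all 3 WT rescue libraries. Its log2 fold change was 0.92 (SE 0.054; edgeR quasi-likelihood test, adjusted p = 2.82e-12), larger in size than that of 89.1% of tested genes.

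IL7R, the alpha chain that binds IL-7, had 219.7, 249 and 222 CPM in the mutant rescue, against 86.2, 94.7 and 91.3 CPM in the WT rescue. The second mutant rescue library was the highest, and the groups lay far apart. The log2 fold change was 1.34 (SE 0.049; edgeR, adjusted p = 2.38e-12), and it was 1.28 without the second mutant rescue library. IL7R is also a common T cell marker. Of the 8 T cell markers, CD28 and CD8A were higher in the mutant rescue as IL7R was, LCK was lower, CD3D and CD3G had at most 1 count in any library, and CD2, CD3E and TRAT1 were at 0; their part in the IL7R result was not tested. Its other known partner, CRLF2, with which it forms the receptor for TSLP, had 0 counts in all 6 libraries.

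IL4R, the alpha chain that binds IL-4 and, with IL13RA1, IL-13, was the most abundant member. It had 253, 248 and 251 CPM in the mutant rescue, against 466, 464 and 464 CPM in the WT rescue. Both groups were tight and did not overlap. The log2 fold change was -0.89 (SE 0.030; edgeR, adjusted p = 3.17e-16), larger in size than that of 88.2% of tested genes. IL13RA1 had 9, 6 and 9 counts in the mutant rescue and 4, 2 and 1 counts in the WT rescue and was not tested.

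IL21R, the chain that binds IL-21, had 41.2, 38.9 and 38.8 CPM in the mutant rescue, against 42.5, 40.2 and 40.5 CPM in the WT rescue. The groups overlapped. The fold change of the mutant over the WT rescue was 0.965, with a 95% interval of 0.902 to 1.03 (edgeR, adjusted p = 0.340).

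IL2RA (CD25), which raises the affinity of the receptor for IL-2, had 75.1, 76.5 and 74.3 CPM in the mutant rescue, against 63.2, 62.0 and 63.2 CPM in the WT rescue. The groups did not overlap, but the rise was small (log2 fold change 0.26, SE 0.038; edgeR, adjusted p = 3.97e-06), and it was larger in size than that of 46.3% of tested genes. It did not exceed a minimum change of 1.2-fold (edgeR glmTreat, adjusted p = 0.501). IL2RB, the signalling chain that the IL-2 and IL-15 receptors need beside IL2RG, had 2, 0 and 0 counts in the mutant rescue and 1, 2 and 4 counts in the WT rescue. These values are at or near the floor of 3 counts. Summed over libraries they were 2 counts in the mutant rescue against 7 in the WT rescue. The ratio was 0.288, with a 95% exact conditional interval of 0.0292 to 1.51 that covers counting error only. Transcript of the IL-2 receptor was therefore seen for the alpha and gamma chains, and beta chain transcript was at the limit of detection in both rescues.

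The chains of the IL-10 receptor moved in opposite directions. IL10RA, the chain that binds IL-10, had 5.64, 5.48 and 5.11 CPM in the mutant rescue, against 11.6, 13.4 and 13.1 CPM in the WT rescue. The groups did not overlap, and IL10RA had the largest fall among the 8 tested members (log2 fold change -1.23, SE 0.090; edgeR, adjusted p = 1.20e-10). IL10RB, the shared accessory chain, had 93.7, 92.5 and 92.0 CPM in the mutant rescue, against 49.0, 48.2 and 50.3 CPM in the WT rescue. Here the mutant rescue libraries were all higher (log2 fold change 0.92, SE 0.039; edgeR, adjusted p = 1.56e-14).

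IL6ST, the shared signalling chain of the IL-6 family, was low, with 9.41, 11.3 and 10.6 CPM in the mutant rescue, against 12.0, 13.7 and 12.4 CPM in the WT rescue. The groups came close without overlapping. The fall passed the test (log2 fold change -0.28, SE 0.084; edgeR, adjusted p = 0.00552) but not the minimum change of 1.2-fold (edgeR glmTreat, adjusted p = 0.382). IL6R, the chain that binds IL-6, had 0, 2 and 3 counts in the mutant rescue and 5, 5 and 6 counts in the WT rescue. Summed over libraries these were 5 counts against 16, a ratio of 0.315 with a 95% exact conditional interval of 0.0901 to 0.899 that covers counting error only. The IL6R counts lay at or near the floor of 3 counts. Without the low count filter IL6R did not pass the test (edgeR, adjusted p = 0.0608).

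**Figure D2:**
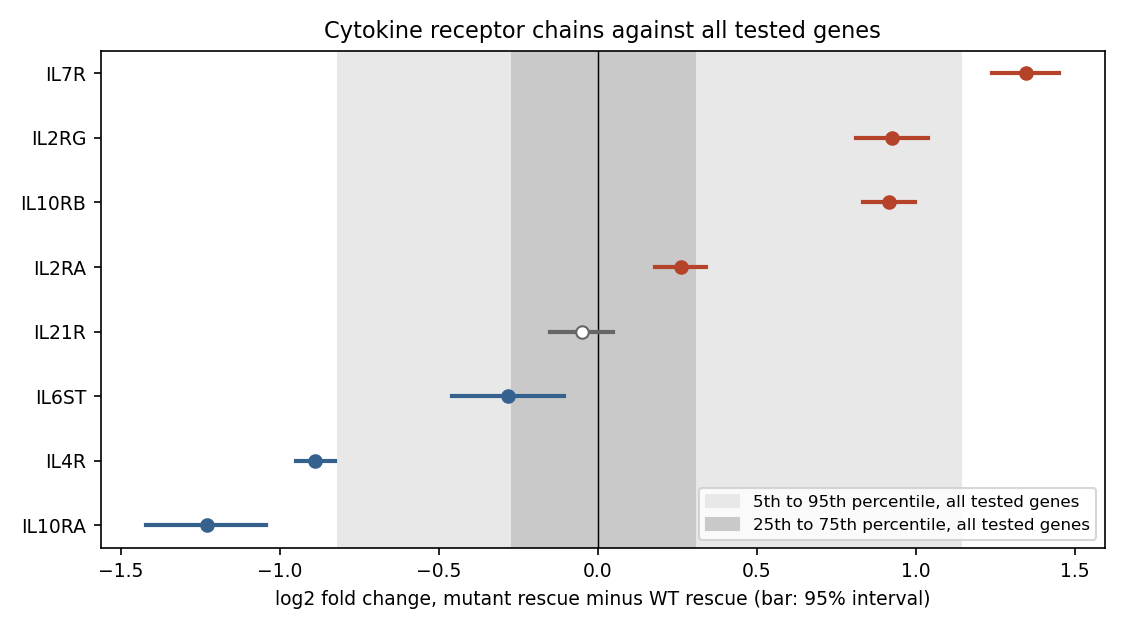
Log2 fold change of the 8 tested receptor chains, mutant rescue minus WT rescue, with 95% intervals from the quasi-likelihood fit; filled points passed the test, the open point (IL21R) did not, and the grey bands give percentiles of all 12406 tested genes. IL7R (1.34) lies above the 95th percentile of all genes (1.14), and IL4R (-0.89) and IL10RA (-1.23) lie below the 5th (-0.82).

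Levels were compared between genes per kilobase of each gene's longest GENCODE v29 protein-coding transcript. Only this length was used, and which transcripts these cells made was not determined, so the order holds for these lengths alone. Overlap of libraries reflects their spread and not the choice of length. IL4R was highest in both rescues, at 68.1 ± 0.697 CPM per kilobase in the mutant rescue and 126.1 ± 0.371 in the WT rescue (SD, n = 3 each). In the mutant rescue IL7R (49.8 ± 3.55 CPM per kilobase), IL10RB (43.5 ± 0.414), IL2RG (37.2 ± 1.48) and IL2RA (23.7 ± 0.352) followed, and none of these neighbours in the order overlapped. In the WT rescue IL10RB (23.1 ± 0.504 CPM per kilobase) came next, and then IL2RA (19.8 ± 0.221), IL7R (19.6 ± 0.921) and IL2RG (19.6 ± 1.57), whose libraries overlapped, so those chains could not be ordered. IL21R stood sixth in both rescues, at 8.17 ± 0.287 CPM per kilobase in the mutant rescue and 8.47 ± 0.260 in the WT rescue. IL10RA (1.46 ± 0.0730 CPM per kilobase in the mutant rescue and 3.44 ± 0.251 in the WT rescue) and IL6ST (1.15 ± 0.107 in the mutant rescue and 1.40 ± 0.0983 in the WT rescue) were lower, and IL6R and IL2RB were at the bottom and overlapped. In the mutant rescue IL4R stood 1.37-fold above IL7R, which came next there. In the WT rescue it stood 5.47-fold above IL10RB, which came next there.

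Ratios of raw counts within a library do not depend on how libraries are scaled. They are not corrected for transcript length, so only their change between the rescues is read. Per IL2RG count there were 4.61, 4.17 and 4.42 IL4R counts in the mutant rescue, against 16.1, 16.3 and 14.1 in the WT rescue, a 3.52-fold lower mean. For IL7R there were 3.997, 4.19 and 3.90 counts per IL2RG count in the mutant rescue, against 2.97, 3.33 and 2.78 in the WT rescue, a 1.33-fold higher mean. The IL21R ratio averaged 0.695 ± 0.0498 in the mutant rescue and 1.37 ± 0.121 in the WT rescue, and the IL2RA ratio averaged 1.32 ± 0.0411 in the mutant rescue and 2.10 ± 0.147 in the WT rescue (SD, n = 3 each). Per IL10RB count there were 0.0601, 0.0592 and 0.0555 IL10RA counts in the mutant rescue, against 0.238, 0.277 and 0.260 in the WT rescue, a 4.43-fold lower mean. None of these 5 ratios overlapped between the rescues. An exact permutation test of 3 libraries against 3, two-sided, gave p = 0.1 for each, which is the smallest p this design allows.

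**Figure D3:**
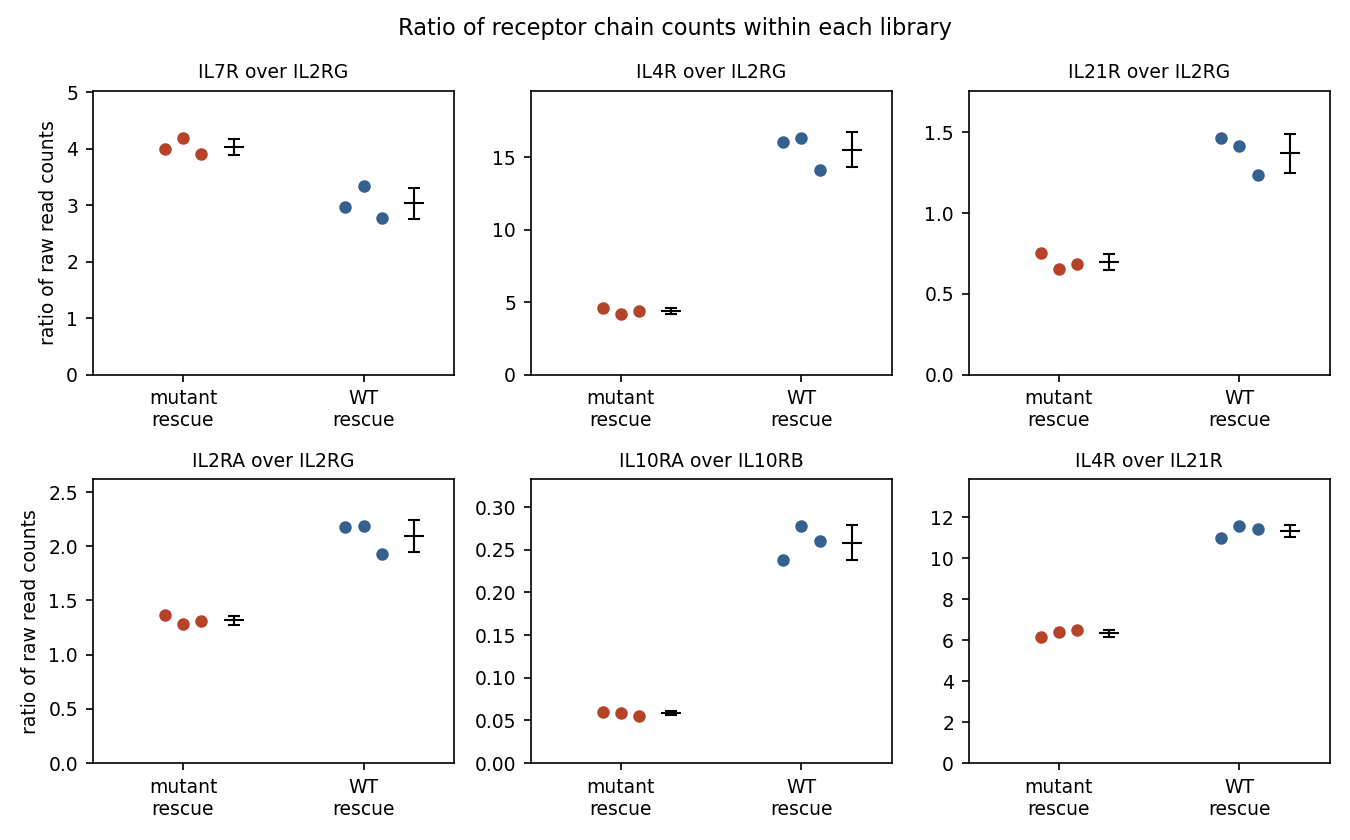
Ratios of raw read counts of receptor chains within each library, mutant rescue on the left and WT rescue on the right; each point is 1 library and the bars give mean and SD (n = 3). IL4R per IL2RG averaged 4.40 in the mutant rescue and 15.5 in the WT rescue, and IL10RA per IL10RB averaged 0.0583 in the mutant rescue and 0.258 in the WT rescue.

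Of the 19 ligand genes listed for these receptors, 10 had 0 counts in all libraries, among them IL2, IL4, IL6, IL9, IL15 and IL21. IL10 had 0, 0 and 2 counts in the mutant rescue and 2, 0 and 0 counts in the WT rescue, and IL7 had 2, 7 and 5 counts in the mutant rescue and 8, 6 and 4 counts in the WT rescue. The one ligand gene tested was CTF1, a cytokine that signals through IL6ST, with 4.10 CPM in the mutant rescue and 4.47 CPM in the WT rescue (log2 fold change -0.12; edgeR, adjusted p = 0.343). IL7 lay above the floor of 3 counts in all libraries but 1, and which cytokines the medium supplied is not given in the sources used here.

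Of the 5 tested chains that pair with a member, 4 rose, none fell and 1 missed the threshold, with a median log2 fold change of 0.52. Over all tested genes 35.4% rose and 34.8% fell, and the counts of every list below are to be set against these shares. IL27RA, which pairs with IL6ST to bind IL-27, had 370, 394 and 376 counts in the mutant rescue, against 182, 161 and 169 counts in the WT rescue (log2 fold change 1.16, SE 0.081; edgeR, adjusted p = 4.65e-11). Per IL6ST count there were 1.37 ± 0.0906 IL27RA counts in the mutant rescue and 0.501 ± 0.0517 in the WT rescue (SD, n = 3 each), so this partner and its shared chain moved apart. IL28RA, an older symbol of IFNLR1, which pairs with IL10RB to bind type III interferons, rose to 141 CPM in the mutant rescue, against 102 CPM in the WT rescue (log2 fold change 0.48). IL22RA1, which pairs with IL10RB to bind IL-22, also rose (0.82 on the log2 scale) and was low, at 3.50 CPM in the mutant rescue and 1.98 CPM in the WT rescue. IL9R had 0 counts in all libraries, and IL15RA did not pass the test, with 2.77 CPM in the mutant rescue and 3.42 CPM in the WT rescue. Among 11 other tested cytokine receptor chains 6 rose and 4 fell and 1 missed the threshold (median log2 fold change 0.40). The interferon receptor genes IFNAR1 (0.65 on the log2 scale), IFNAR2 (0.43) and IFNGR2 (0.40) rose, and the receptor-like gene CRLF3 (-0.34) fell.

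All 4 JAK kinase genes rose, with a median log2 fold change of 0.28. JAK3, the kinase that binds IL2RG, had 183, 156 and 159 counts in the mutant rescue, against 79, 59 and 73 counts in the WT rescue, and rose 2.37-fold (log2 fold change 1.25, SE 0.126; edgeR, adjusted p = 1.88e-08). It rose beside IL2RG, and the number of JAK3 counts per IL2RG count (0.109 ± 0.0137 in the mutant rescue and 0.0868 ± 0.0109 in the WT rescue; SD, n = 3 each) overlapped between the rescues. JAK1, which binds the partner chains and IL6ST, rose less (0.32 on the log2 scale), as did JAK2 (0.24) and TYK2 (0.20), which binds IL10RB. The rescues overlapped for TYK2 but not for the other JAK genes.

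Among the 6 STAT genes tested, 3 rose and 2 fell and 1 missed the threshold (median log2 fold change 0.09). STAT6, the factor activated by IL-4, fell by 0.23 on the log2 scale, at 196 CPM in the mutant rescue and 229.9 CPM in the WT rescue. STAT3, the factor activated by IL-6, IL-10 and IL-21, did not pass the test, at 48.7 CPM in the mutant rescue and 47.5 CPM in the WT rescue. STAT5A, activated by IL-2 and IL-7, had 161, 134 and 136 counts in the mutant rescue, against 8, 10 and 15 counts in the WT rescue (log2 fold change 3.70, SE 0.201; edgeR, adjusted p = 8.16e-13). Its near-identical relative STAT5B fell by 0.58 on the log2 scale and was the more abundant of the pair, at 40.0 CPM in the mutant rescue and 59.7 CPM in the WT rescue. How reads shared by these relatives were counted is not given in the sources used here, so their values are uncertain. STAT2, a factor of type I interferon signalling, rose (0.54).

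Of 16 tested inhibitors of cytokine signalling 6 rose and 8 fell and 2 missed the threshold (median log2 fold change -0.11). PTPN6 (SHP-1), a phosphatase that acts on cytokine and antigen receptors, fell to 4.15 CPM in the mutant rescue, against 14.7 CPM in the WT rescue (log2 fold change -1.82). PTPN2, a phosphatase that acts on JAK1, JAK3 and STAT proteins, rose (0.57), as did the ubiquitin ligase gene CBL (0.39), and PTPN11 fell by 0.30 on the log2 scale. SOCS3 and CISH, inhibitors that STAT3 and STAT5 induce, had at most 2 counts in any library of either rescue. SOCS1, another inhibitor of this list, was higher in level and rose, at 36.3 CPM in the mutant rescue and 30.2 CPM in the WT rescue (log2 fold change 0.27).

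Among 11 tested adaptors 8 rose and 1 fell and 2 missed the threshold (median log2 fold change 0.17), against 35.4% higher and 34.8% lower over all tested genes. GAB1 had 151, 146 and 138 counts in the mutant rescue, against 9, 4 and 8 counts in the WT rescue, and its size is uncertain at so low a WT level (log2 fold change 4.36). GAB2 (1.18), the kinase subunit gene PIK3CD (0.95) and IRS1, a substrate of the IL-4 receptor pathway (0.51), also rose. Of 11 genes for shedding and turnover of surface receptors 5 rose and 4 fell and 2 missed the threshold (median log2 fold change 0.08). RHBDF2, which carries the sheddase ADAM17 to the surface, rose to 33.1 CPM in the mutant rescue, against 8.60 CPM in the WT rescue (log2 fold change 1.94). ADAM17, which cuts IL6R from the cell surface, rose by 0.28 on the log2 scale, and HGS, which sorts receptors for degradation, fell (-0.55).

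Of 14 tested genes known as targets of IL-4, IL-6, IL-10 or IL-21 signalling 6 rose and 4 fell and 4 missed the threshold (median log2 fold change 0.13). IRF4 (2.36) and XBP1 (1.70), factors of plasma cell differentiation, and the survival gene BCL2L1 (0.92) rose, and the transferrin receptor gene TFRC fell (-0.61). FCER2 (CD23), a target of IL-4, was scarce in both rescues, with 7, 4 and 6 counts in the mutant rescue and 2, 2 and 1 counts in the WT rescue, and was not tested. IRF4 and XBP1 are known targets of other pathways too, and both were known to be high in the mutant rescue when the lists were made.

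**Figure D4:**
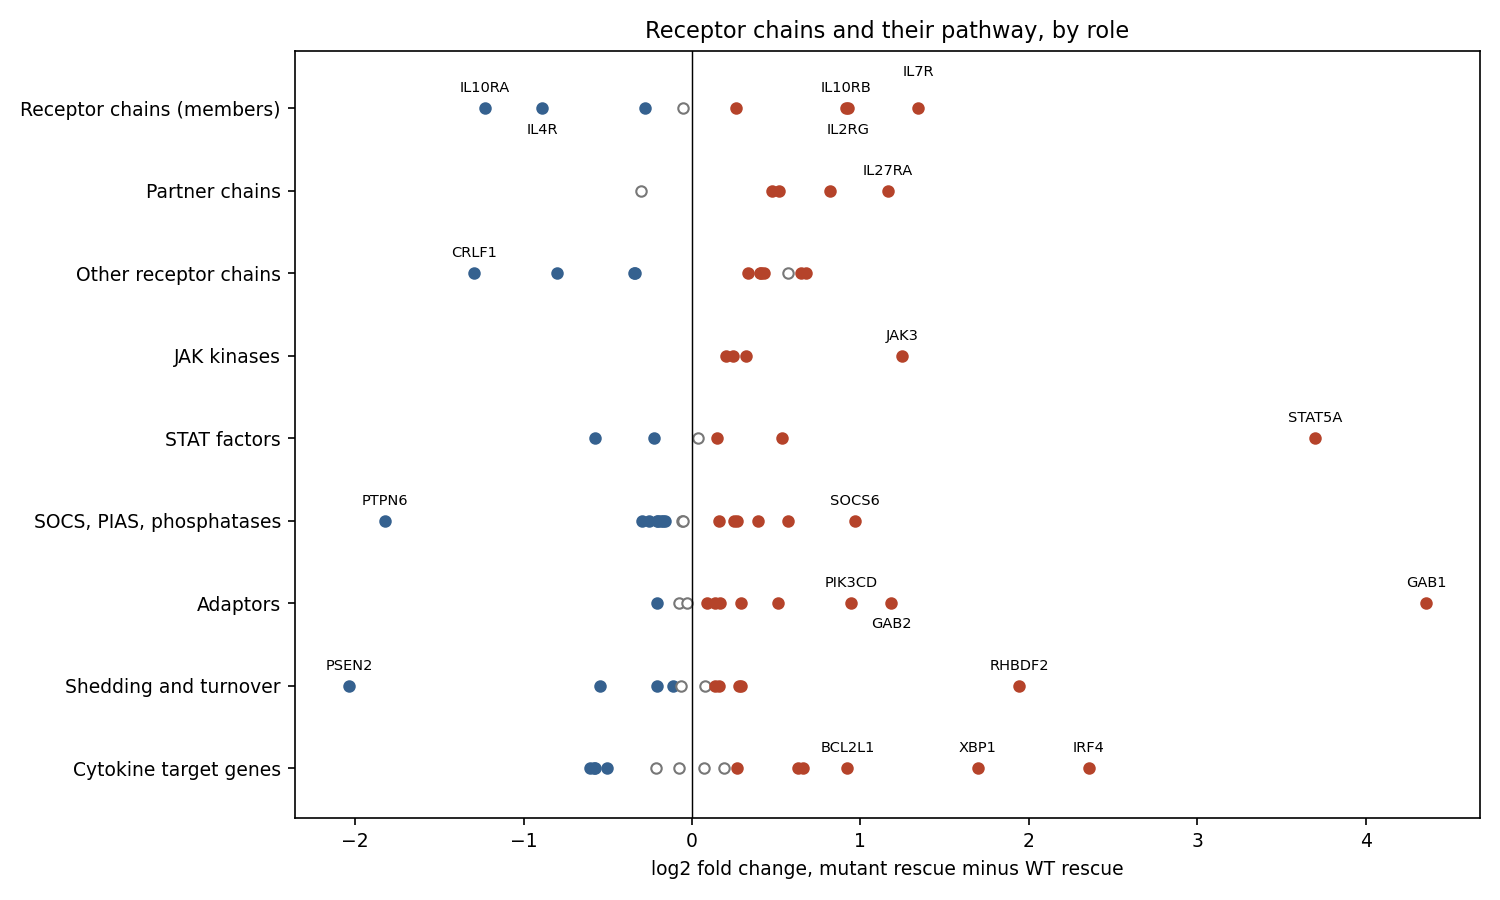
Log2 fold change, mutant rescue minus WT rescue, of every tested gene of each list, 1 row per role; red points rose and blue points fell past the test, open points did not pass it, and genes beyond 0.85 in size are named. The 4 JAK genes all lie above 0, and the receptor chains lie on both sides, from IL10RA (-1.23) to IL7R (1.34).

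Several members lie beside other cytokine receptor genes, by the gene order of RefSeq assembly GRCh38.p14. IL4R and IL21R are next to each other on chromosome 16, and they behaved differently. There were 6.14, 6.39 and 6.48 IL4R counts per IL21R count in the mutant rescue, against 11.0, 11.6 and 11.4 in the WT rescue, with no overlap (exact permutation test, two-sided, p = 0.1, the smallest possible). On chromosome 21 IL10RB lies between IFNAR2 and IFNAR1, with IFNGR2 next in line, and all 4 rose, IL10RB the most. Per IFNAR1 count there were 0.463 ± 0.0213 IL10RB counts in the mutant rescue and 0.384 ± 0.0154 in the WT rescue (SD, n = 3 each), with no overlap. A transcript that joins IFNAR2 and IL10RB is annotated, so some reads could be counted for either gene. On chromosome 10 IL2RA lies next to IL15RA, with 22.6, 31.6 and 29.1 IL2RA counts per IL15RA count in the mutant rescue, against 19.7, 16.5 and 19.2 in the WT rescue.

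On both sides of IL7R on chromosome 5 the next protein-coding genes also rose; they were chosen after their values were seen. CAPSL had 279, 302 and 326 counts in the mutant rescue, against 143, 121 and 132 counts in the WT rescue (log2 fold change 1.21; edgeR, adjusted p = 4.32e-10). SPEF2 had 21, 20 and 13 counts in the mutant rescue, against 6, 5 and 7 counts in the WT rescue (log2 fold change 1.57; edgeR, adjusted p = 0.000490). Of the 20 tested neighbours within 2 places of any member, members left out, 13 rose, 1 fell and 6 missed the threshold, where 35.4% of all tested genes rose and 34.8% fell.

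**Figure D5:**
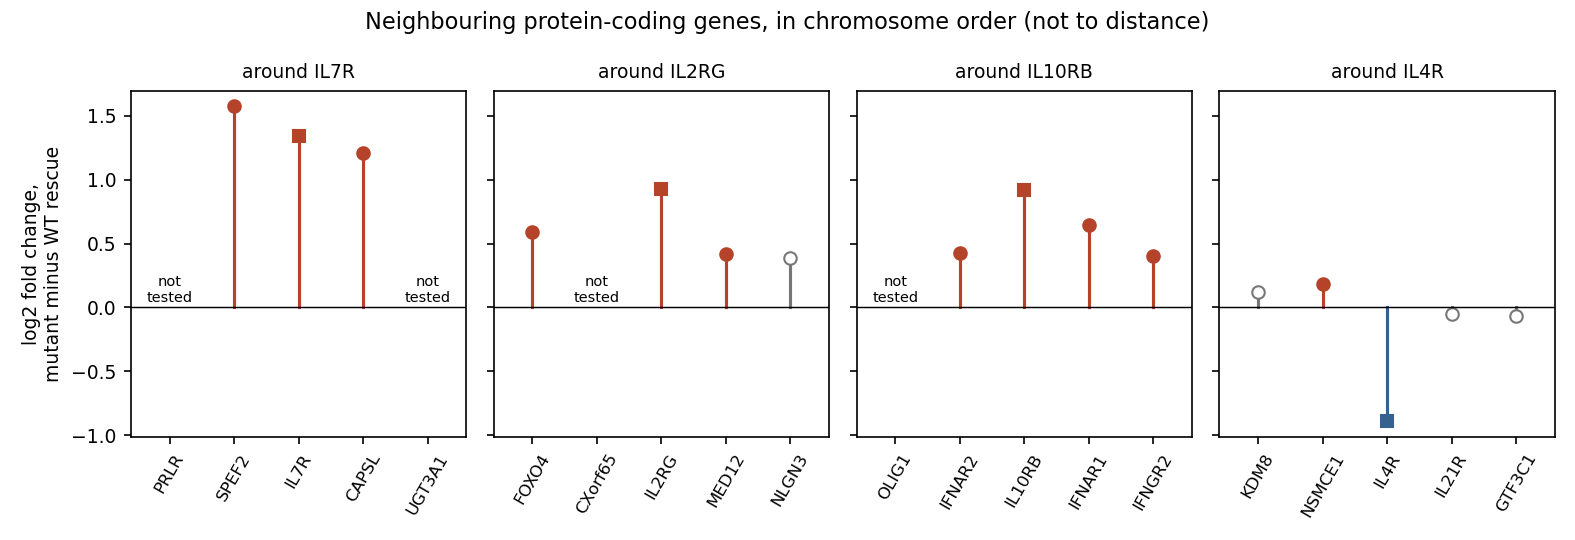
Log2 fold change, mutant rescue minus WT rescue, of protein-coding genes up to 2 places to either side of IL7R, IL2RG, IL10RB and IL4R, in chromosome order and not to distance; squares are the members, filled symbols passed the test and open symbols did not. CAPSL (1.21), SPEF2 (1.57) and IL7R (1.34) rose together, whereas IL21R (-0.05) beside IL4R (-0.89) did not pass the test.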

How the data were processed

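Transcripts were measured in 6 libraries of OCI-LY1, 3 of the mutant and 3 of the WT rescue, grouped by their titles. The table the authors deposited holds raw counts of reads for each symbol, in a column per library, not pooled. The submitters' processing notes name CASAVA 1.8.2, STAR, edgeR and genome build hg19; read counter, annotation and strand setting: not given in the sources used here. Without a stated strand setting, reads of IL4R, IL21R, IL2RA, IL2RB, IL6R and IL6ST cannot be separated from those of antisense genes that GENCODE v29 places over them. On the same strand it places the protein-coding genes AL590764.2 over IL2RG and AP000295.1 over IL10RB, and the snoRNA gene RF00397 over IL2RA. A strand setting would not separate their reads, and the deposited counts hold no row for any of them.

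The counts were tested in R 4.3.3 with edgeR 4.0.16, with TMM scaling, filterByExpr at its defaults (12406 of 23250 genes kept), robust quasi-likelihood fits without a covariate and Benjamini-Hochberg adjustment over all tested genes at 0.05. Log2 fold changes are mutant minus WT rescue, CPM uses TMM-scaled library sizes, the SE is the coefficient divided by the square root of its F, and intervals are 95%. DESeq2 1.42.0 and limma 3.58.1 served alternatives. The test was checked on simulated counts. Chi-square per degree of freedom between replicate libraries, for genes whose counts in the pair reached 20, was 1.60 to 5.47, above sampling noise in each pair, so no library was taken as a repeat deposit of another, and all 6 were kept.

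The members, gene lists, motifs and the rule for named genes (all members, and from each list up to 4 changed genes with the smallest p and a mean count of at least 50) were chosen with earlier results of these data known. Genes named beside these were chosen after their values were seen. Ratios and gene neighbours were also added then. Promoter sequences and gene order came from RefSeq on GRCh38.p14, matched by symbol for 9 of 10 members' promoters, and transcript lengths from GENCODE v29.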

Additional observations from a re-analysis of the deposited data

How the results depend on the processing

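All 7 changed members kept their direction and passed, and IL21R stayed short of the threshold, under each of the 15 alternatives (3 other scalings, DESeq2, limma-voom, 2 other filters, the replicate number as a block, glmTreat and 6 fits that each left out a library), except that IL2RA and IL6ST did not pass glmTreat against 1.2-fold. The change of IL2RA (1.198-fold) was below that minimum, and the change of IL6ST (1.215-fold) was only just above it. The glmTreat test also gave fewer changed genes, 2383 higher and 2202 lower, against 4386 higher and 4316 lower when tested against no change. Leaving out 1 library gave 4125 to 4466 genes higher and 3965 to 4450 lower, and 4 members higher and 3 lower each time. IL6ST was the member nearest the threshold, with log2 fold changes of -0.34 to -0.21 over all alternatives and an adjusted p of 0.0438 without the second WT rescue library and 0.0414 without the first mutant rescue library (edgeR). The other scalings moved the median of all genes by less than the smallest member change that passed, to at most 0.04 with library size scaling. The JAK and STAT lists had the same numbers of genes higher and lower under the other scalings, DESeq2 and the replicate block, and in the other lists the numbers moved by at most 2 genes. Without the low count filter IL6R had a log2 fold change of -1.61 (edgeR, adjusted p = 0.0608) and IL2RB had an adjusted p of 0.240, and neither passed.

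Same-numbered libraries of the rescues did not deviate together in every pair, with correlations of 0.20, 0.24 and -0.07, and the third mutant rescue library correlated best with another number, so the numbers were not taken as a pairing. With the number as a replicate block 4680 genes were higher and 4605 lower, and 4 members were higher and 3 lower, as without it. Depth limits IL6R and IL2RB, whose counts lay at or near the floor.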
